A study of Homo sapiens with 8 samples.

Results

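The clustered replication histone genes are the genes that encode the bulk of the H1 linker histones and of the H2A, H2B, H3 and H4 core histones. They were taken as the rows of 2 mRNA-seq count tables whose symbol starts with HIST1H, HIST2H, HIST3H or HIST4H, leaving out 1 row in each table whose name ends in PS and a number. This gave 70 of the 42125 genes in the table of the TFAP2C experiment and 68 of the 23393 genes in the table of the SAE2 experiment, 66 of them in both and 72 in either. By histone class the first table held 6 H1, 17 H2A, 18 H2B, 14 H3 and 15 H4 genes, and the second held 6, 15, 20, 13 and 14. The HIST1 cluster on chromosome 6 held 55 and 54 members, HIST2 on chromosome 1 held 11 and 10, HIST3 on chromosome 1 held 3 in each, and HIST4 on chromosome 12 was the single gene HIST4H4.

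Histone proteins pack DNA into nucleosomes, and the replication genes supply them while DNA is copied in S phase. Their mRNAs are unusual in that most have no poly(A) tail and end in a short stem-loop, which is bound by the stem-loop binding protein (SLBP) and governs processing, translation and decay. Some of these genes can also make longer, polyadenylated transcripts, mainly outside S phase or in differentiated cells, so libraries that select poly(A) RNA show only part of what the genes produce.

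The 8 libraries came from HCT116, a human colon cancer line, in 4 groups of 2 replicates. All 4 groups, the siRNA groups included, were made in HCT116 cells that stably carry a Tet-On shRNA construct against SAE2, the protein name of UBA2, the catalytic subunit of the SUMO E1 enzyme. The control siRNA and TFAP2C siRNA groups (TFAP2C KD) were collected after 48 h. The SAE2 kd group received 1 ug/mL of doxycycline (Dox) for 5 days, and its control is labelled DMSO for 5 days. TFAP2C is a transcription factor of the AP-2 family, and the comparisons asked how the transcriptome differs when it, or SUMO conjugation, is lowered. The libraries were made with a poly(A)-selecting mRNA kit and read as single ends of 51 bases.

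Total counts lay between 18213739 and 24465109 per library. TFAP2C was counted 460 and 427 times with control siRNA and 83 and 96 times in TFAP2C KD, a log2 fold change of -2.34. UBA2 was counted 3024 and 3052 times with DMSO and 2646 and 2851 times with Dox, a log2 fold change of -0.04 with a 95% interval of -0.15 to 0.08, so its mRNA did not check the label and the Dox libraries are called the libraries labelled SAE2 kd. SAE2 protein is not among the data analysed here. In the SAE2 table both replicate 2 libraries stood apart from both replicate 1 libraries in the members, as given below. Of 10 colon epithelial markers, CDX1 and VIL1 were at 0 to 3 counts in every library and the other 8, among them EPCAM and KRT8, passed the filter in both tables. Of these 8, 0 passed the test after TFAP2C KD, and with Dox 4 were higher and 1 lower (log2 fold changes of all 8 from -0.54 to 0.29), where 9.98% of all genes passed.

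The printed stem-loops are those of members whose values are given below, and they show how the H4 genes differ from the other classes. In the hg19 gene models of the SAE2 table, a stem-loop was searched on the gene strand as 6 stem bases GGNNNT, a loop of 4 bases TTTN and 6 stem bases ANNNCC, with all stem positions able to pair and G with T allowed. It lay between 150 bases before and 100 bases after the model's end in 59 of 68 members. Over all 23162 genes scanned, 63 held it (0.272%), so 4 genes that are not members did: EAF1, MIR3143, SEZ6L and SLC39A12. Capitals mark the stem-loop and the lower case letters are 5 bases of flank on each side, from the GRCh37 genome.
HIST1H1C, chr6:26055972-26055987, minus strand: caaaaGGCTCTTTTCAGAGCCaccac
HIST1H1E, chr6:26157323-26157338, plus strand: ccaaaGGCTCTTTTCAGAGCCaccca
HIST3H2A, chr1:228645070-228645085, minus strand: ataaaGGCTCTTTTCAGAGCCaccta
HIST1H3H, chr6:27778294-27778309, plus strand: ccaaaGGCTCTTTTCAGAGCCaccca
HIST1H4A, chr6:26022258-26022273, plus strand: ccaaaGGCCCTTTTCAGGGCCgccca
HIST1H4C, chr6:26104545-26104560, plus strand: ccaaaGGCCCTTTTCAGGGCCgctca
HIST1H2BK, chr6:27114145-27114160, minus strand: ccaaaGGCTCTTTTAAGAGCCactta
HIST1H2BD, chr6:26158815-26158830, plus strand: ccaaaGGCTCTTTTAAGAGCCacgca
HIST2H2BE, chr1:149857738-149857753, minus strand: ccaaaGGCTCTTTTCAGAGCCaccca

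The form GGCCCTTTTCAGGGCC was found in 10 of the 12 H4 members with a stem-loop at the end and in 0 of the 47 such members of the other classes. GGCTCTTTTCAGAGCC was found in 4 of 6 H1, 11 of 15 H2A, 10 of 14 H2B, 10 of 12 H3 and 0 of 12 H4 members. In 55 of the 59 members the model ended within 10 bases of the last stem base, at a median of 5 bases, so the hg19 models of these genes cover the stem-loop mRNA and not a longer transcript. HIST1H2BK, HIST1H2BD and HIST2H2BE, 3 H2B genes, were different: their models ran on for 8073, 12746 and 1728 bases of genome past the last stem base, with introns in the first 2. The 9 members without a stem-loop at the model's end, these 3 included, took 31.0% of all member counts in the SAE2 table, and HIST1H1C alone, whose model ends at its stem-loop, took 25.7%.

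The promoters also differed by class. RefSeq promoters on GRCh38.p14, of which the 250 bases before the start were searched on both strands, were matched for 60 members and compared with all 27305 promoters. The octamer ATTTGCAT, to which POU2F1 binds, was in 11 of 16 H2A, 9 of 13 H2B and 1 of 12 H3 promoters, and in 0 of 6 H1 and 0 of 13 H4 promoters, against 1.66% of all promoters. Neighbouring genes can share promoter sequence: 9 pairs of these windows had 193 to 250 bases in common, so the 21 promoters with the octamer held it at 15 distinct places, and the H3 promoter with it (HIST1H3D) is the same 250 bases as that of HIST1H2AD. AAACACA, known as the AC box of H1 genes, was in 6 of 6 H1 promoters and in 0 of the other 54, against 4.95% of all. CCAAT was in every H1, H2A, H2B and H3 promoter searched and in 3 of 13 H4 promoters, against 33.0% of all, and TATAAA was in 66.7% of member promoters against 11.1%. The promoters below are those of the most counted member and of the only member that passed the test in a comparison, with matches to the 4 motifs on either strand in capitals. The first capital run of HIST1H2BK joins overlapping matches to TATAAA on the 2 strands.
HIST1H1C, chr6:26056471-26056720, minus strand: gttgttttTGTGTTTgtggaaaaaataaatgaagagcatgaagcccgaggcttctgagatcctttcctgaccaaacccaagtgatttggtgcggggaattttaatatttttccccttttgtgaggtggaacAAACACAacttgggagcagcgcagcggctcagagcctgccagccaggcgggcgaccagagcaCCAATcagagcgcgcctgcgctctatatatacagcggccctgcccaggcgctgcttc
HIST1H2BK, chr6:27146859-27147108, minus strand: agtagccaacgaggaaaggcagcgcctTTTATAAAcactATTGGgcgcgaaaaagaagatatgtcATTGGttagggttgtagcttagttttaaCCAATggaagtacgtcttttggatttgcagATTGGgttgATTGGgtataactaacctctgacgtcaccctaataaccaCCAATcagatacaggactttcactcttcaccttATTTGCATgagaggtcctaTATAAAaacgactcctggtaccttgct

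The members gave few counts in these poly(A)-selected libraries. All members together took 1992 and 1810 counts with control siRNA and 2087 and 2025 in TFAP2C KD, which is 81.7, 86.8, 87.0 and 90.6 CPM (counts per 1000000, scaled by TMM). In the SAE2 table they took 890 and 1087 counts with DMSO and 772 and 904 in the libraries labelled SAE2 kd, or 47.6, 52.1, 42.9 and 48.6 CPM. Of 70 members in the TFAP2C table, 29 were at 0 in all 4 libraries, 22 had a count but did not pass the filter on low counts, and 19 were tested. Of 68 in the SAE2 table, 11 were at 0, 42 had a count but were not tested, and 15 were tested. A count of 0 in a library allows a level of up to 0.123 to 0.144 CPM in the first table and up to 0.144 to 0.167 CPM in the second (3 counts, counting error only). HIST2H2AA4, HIST2H3C and HIST2H4A, which lie in a repeated stretch of chromosome 1 with near-identical copies, were at 0 in all 8 libraries, and their values are uncertain because reads that match several places may not be counted.

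A few members took most of the counts. The 7 members known from other work to make polyadenylated transcripts (HIST1H1C, HIST1H2AC, HIST1H2BC, HIST1H2BD, HIST1H2BK, HIST2H2BE and HIST4H4) took between 53.9% and 57.5% of member counts in the TFAP2C table and between 53.8% and 62.2% in the SAE2 table. The 2 most counted members of each class and the leading member of each cluster are shown by library in the plot of CPM below.

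**Figure D1:**
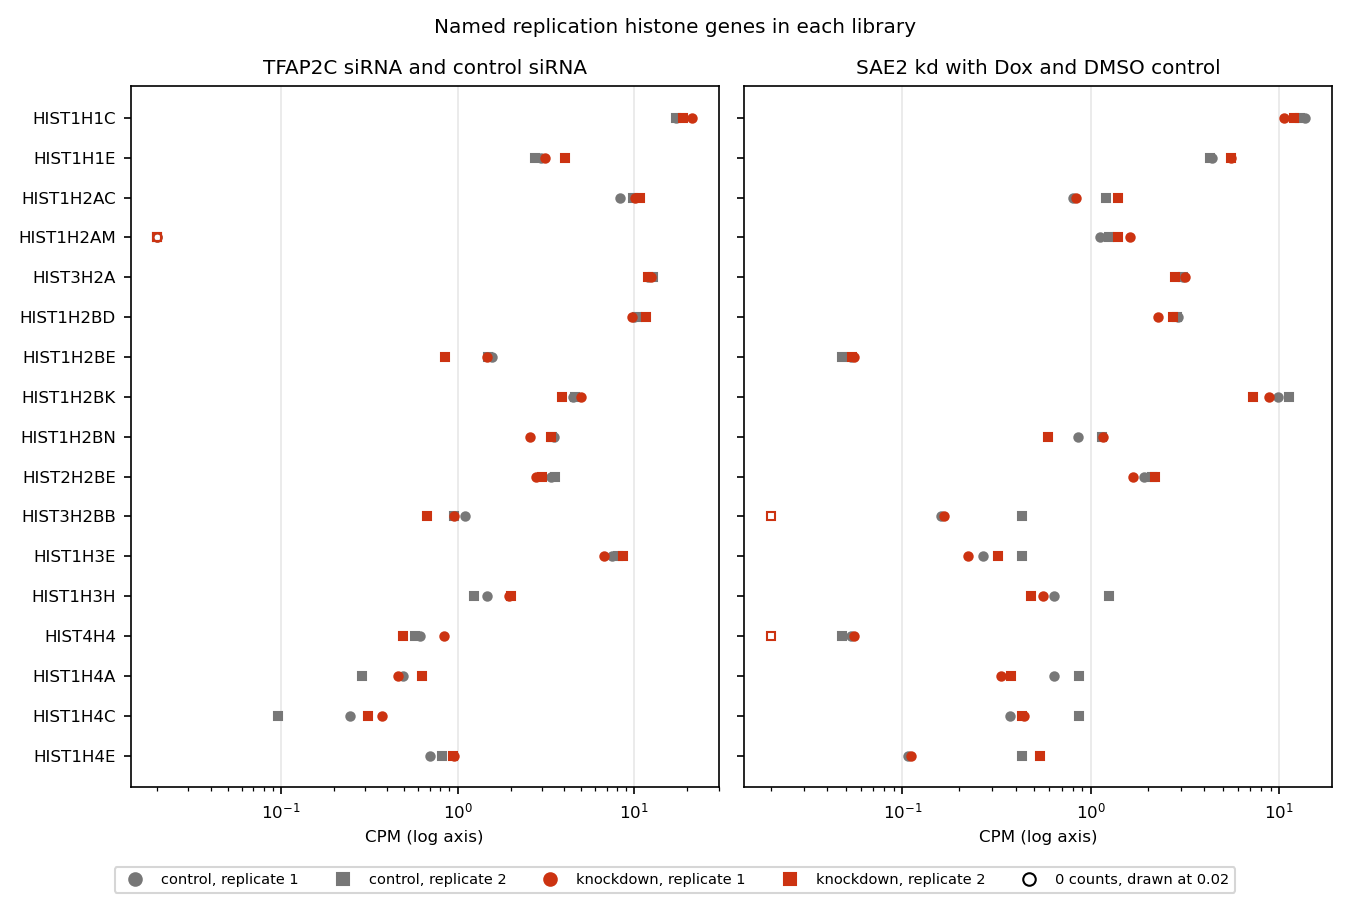
Level of 17 named members in CPM on a log axis, with the TFAP2C table on the left and the SAE2 table on the right. Grey points are control libraries, red points knockdown libraries, circles replicate 1 and squares replicate 2, and open symbols at 0.02 stand for 0 counts. HIST1H1C was the highest in all 8 libraries, and HIST1H2AM was at 0 in the TFAP2C table but between 1.12 and 1.61 CPM in the SAE2 table.

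Per kilobase of gene model, HIST1H1C, a linker histone gene, was the highest member in the TFAP2C table at 27.0 and 26.9 CPM per kb with control siRNA and 33.1 and 29.4 in TFAP2C KD. The H2A gene HIST3H2A (13.3 to 14.3), HIST1H2BD (11.2 to 13.4) and HIST1H2BK (10.2 to 13.2 CPM per kb) followed, and their ranges over the 4 libraries overlapped one after the other. HIST1H2AC, an H2A gene at 4.98 to 6.5 CPM per kb, overlapped with HIST1H1E, a linker histone gene at 3.63 to 5.41. The leading H3 gene HIST1H3E (2.51 to 3.23) and the leading H4 gene per length, HIST1H4A (0.925 to 2.01 CPM per kb), lay below these without overlap.

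In the SAE2 table HIST1H1C was again first, at 14.4 to 18.8 CPM per kb over the 4 libraries, and HIST1H2BK was next at 8.66 to 13.5. HIST1H1E (5.44 to 7.08) and HIST3H2A (5.64 to 6.39 CPM per kb) overlapped, as did HIST1H2BD (2.65 to 3.36) and the H2A gene HIST1H2AM (2.31 to 3.31). The H4 genes HIST1H4A and HIST1H4C lay between 0.898 and 2.33 CPM per kb. No H3 gene exceeded 1.14 CPM per kb in any library of this table.

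The order of the members depended on the table, and the tables differ in gene models as well as in experiment and treatment, so levels set across them are a description only. Which annotation gave the models of the TFAP2C table is not given in the sources used here. The model of 15 of the 66 shared members was more than 2 times as long in the TFAP2C table. Of 14 of these with a count in either control group, 10 had a higher control CPM in the TFAP2C table, against 14 of 41 among the other members with a count. HIST1H3E had a model of 2.677 kb and 7.78 CPM (control mean) in the TFAP2C table and 0.461 kb and 0.349 CPM in the SAE2 table. HIST1H2AC had 1.666 kb and 9.06 CPM in the first and 0.545 kb and 1.00 CPM in the second. HIST4H4 had 2.575 kb and 0.595 CPM in the first and 0.411 kb and 0.0507 CPM in the second. HIST1H3E and HIST1H2AC were thus among the most counted members in the first table and little counted in the second. HIST1H2BK went the other way, with 0.380 kb and 4.56 CPM in the TFAP2C table and 0.837 kb and 10.6 CPM in the SAE2 table, which is 11.9 and 12.1 against 11.8 and 13.5 CPM per kb in the 2 pairs of control libraries. The 15 members with the longer models summed to 27.1 CPM in the TFAP2C control and 4.16 in the SAE2 control, and the other 51 to 57.0 and 45.2. Among these 51, HIST1H2BD had 0.869 kb and 10.2 CPM in the TFAP2C table and 0.859 kb and 2.88 CPM in the SAE2 table. HIST3H2A had 0.894 kb and 12.3 CPM in the first and 0.495 kb and 3.08 CPM in the second. The part of model length in these levels was not tested.

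**Figure D2:**
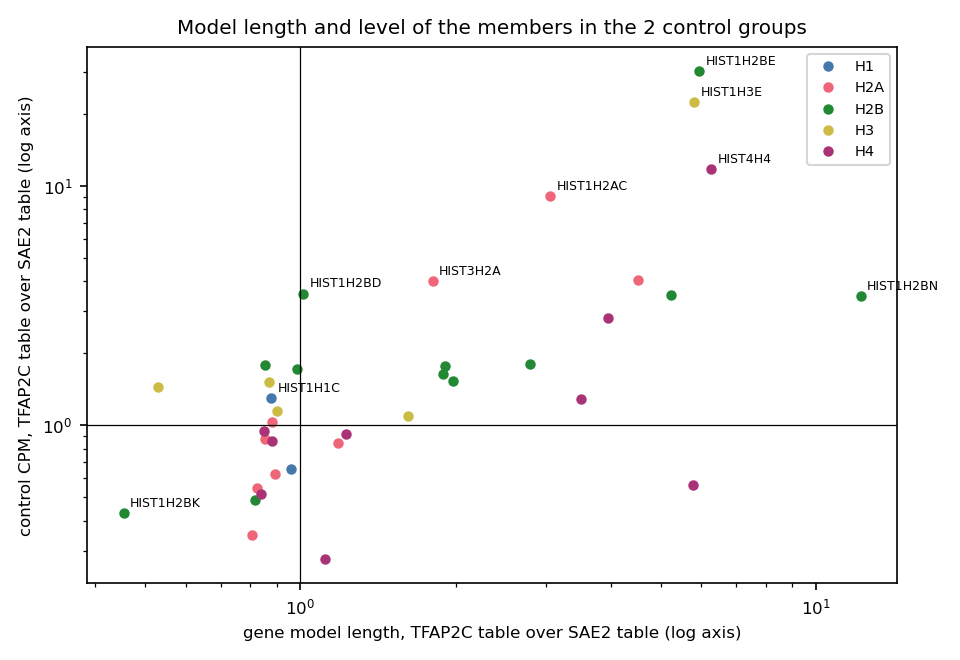
Ratio of control CPM between the tables (vertical, log axis) against the ratio of gene model length (horizontal, log axis), 1 point for each of 37 members with a count in both control groups, coloured by histone class. HIST1H2BE, HIST1H3E, HIST4H4 and HIST1H2AC sit at the upper right with longer models and higher CPM in the TFAP2C table, and HIST1H2BK at the lower left. HIST1H2BD has near equal model lengths and a higher CPM in the TFAP2C table.

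Reads of some members can be shared. Of 60 members with a single-exon hg19 model, 34 had no window of 51 bases, the read length, that recurred on chromosomes 1, 6 or 12, and 5 had at least 50% of their windows copied elsewhere: HIST1H2AJ (72.5%), HIST1H4J (91.2%), HIST1H4K (91.8%), HIST2H3D (98.5%) and HIST2H2BC (82.9%). The counts of these 5 are uncertain. The span of HIST1H2BK in hg19, chr6:27106072-27114637 on the minus strand, crosses HIST1H4I on the other strand, and in GRCh38 the span of HIST1H2BN crosses HIST1H2AK and HIST1H2AL. HIST1H2AM, which was at 0 in all 4 libraries of the TFAP2C table, lies in the span of HIST1H3J on the same strand there. The strand setting of the counting is not given in the sources used here, so reads of such pairs may not be told apart.

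After TFAP2C KD, 0 of 19 tested members passed an adjusted p of 0.05 in edgeR's quasi-likelihood test, where 0.74% of the 14991 genes tested did. DESeq2 called 0 members. It gave no adjusted p to some genes with few counts, such as the replacement histone gene H3F3A, so it may not have judged all 19. At an unadjusted p under 0.05 in edgeR there was 1 member, against 12.6% of all genes tested. The groups did not overlap in CPM with TFAP2C KD higher for 5 members (22.4% of all genes) and lower for 4 (22.4%). The median log2 fold change of the 19 was -0.01, beside -0.00 for all genes tested, with 9 of 19 above 0 (49.1% of all genes). The 95% intervals of single members were from 0.22 to 0.98 to either side on the log2 scale. Passing an adjusted p over all genes asks for more than an interval without 0, so changes larger than these widths could also be missed. As bulk libraries these cannot tell fewer cells in S phase from less histone mRNA per cell.

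Both tested H1 genes were higher in both TFAP2C KD libraries, without passing the test. HIST1H1C stood at 17.3 and 17.2 CPM with control siRNA and at 21.2 and 18.8 in TFAP2C KD. Its log2 fold change was 0.22 (SE 0.10, 95% interval -0.00 to 0.44, edgeR adjusted p = 0.400). Without replicate 2 of TFAP2C KD, HIST1H1C passed with a log2 fold change of 0.30 and an adjusted p of 0.0233, in a fit with the lone KD library that called 2825 genes in place of 111. Without replicate 1 of TFAP2C KD it was 0.13 (adjusted p = 0.660). HIST1H1E stood at 2.95 and 2.73 CPM in the control and at 3.13 and 4.07 in TFAP2C KD, and its log2 fold change was 0.33 (SE 0.19, edgeR adjusted p = 0.490), or 0.14 and 0.51 without replicate 2 or 1 of TFAP2C KD.

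Among the H2A and H2B genes, HIST1H2AC had 8.29 and 9.83 CPM in the control and 10.1 and 10.8 in TFAP2C KD (log2 fold change 0.21, SE 0.12, edgeR adjusted p = 0.509), and without replicate 1 or 2 of the control the value was 0.09 or 0.33. HIST3H2A overlapped between the groups at 11.9 and 12.8 against 12.5 and 11.9 CPM, and so did HIST1H2BD and HIST1H2BK. The 3 largest falls were in H2B genes and did not pass: HIST1H2BE at -0.39, HIST3H2BB at -0.34 and HIST2H2BE at -0.25. Without replicate 1 or 2 of TFAP2C KD the first was -0.84 or -0.06 and the second -0.62 or -0.11, so their size and order rested on single libraries. HIST2H2BE had 3.37 and 3.55 CPM in the control and 2.79 and 3.0 in TFAP2C KD, so its groups did not overlap. Of the 9 tested H2B genes 2 had a log2 fold change above 0.

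The H3 gene HIST1H3H was the member past an unadjusted p of 0.05. It was counted 36 and 26 times with control siRNA and 47 and 45 times in TFAP2C KD. That is 1.48 and 1.25 CPM against 1.96 and 2.01, and both KD libraries lay above both controls. Its log2 fold change was 0.53 (SE 0.23, 95% interval 0.03 to 1.04, edgeR adjusted p = 0.367). HIST1H3E, the other tested H3 gene, overlapped at 7.51 and 8.06 against 6.71 and 8.64 CPM. The tested H4 genes HIST1H4A, HIST1H4E and HIST4H4 had log2 fold changes of 0.44, 0.33 and 0.16, with intervals that held 0.

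In the libraries labelled SAE2 kd, 1 of 15 tested members passed the test, and it was lower; 9.98% of the 13381 genes tested passed, 4.47% being lower. DESeq2 called 0 members, but it gave no adjusted p to some genes with few counts, such as H3F3A, so it may not have judged all 15. At an unadjusted p under 0.05 in edgeR there were 5 members, against 22.7% of all genes. The groups did not overlap with the Dox libraries higher for 2 members (25.5% of all genes) and lower for 5 (25.8%). The median log2 fold change was -0.05, beside -0.00 for all genes tested, with 6 of 15 above 0 (49.9% of all genes).

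The member called was HIST1H2BK, an H2B gene with a polyadenylated transcript. It was counted 185 and 236 times with DMSO and 159 and 135 times in the libraries labelled SAE2 kd. That is 9.88 and 11.3 CPM against 8.83 and 7.25, so both Dox libraries lay below both controls. It fell by 0.40 on the log2 scale (SE 0.13, 95% interval of the log2 fold change -0.67 to -0.14, edgeR adjusted p = 0.0425). The call was lost with DESeq2 (adjusted p = 0.326), in the fit of all 8 libraries (edgeR adjusted p = 0.121), and without replicate 2 of the control (log2 fold change -0.30, adjusted p = 0.304) or of the Dox group (-0.27, adjusted p = 0.330). In TFAP2C KD the same gene, counted on the shorter model, had a log2 fold change of -0.03.

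The H1 genes had values on both sides in the Dox libraries. HIST1H1C had 13.7 and 12.9 CPM with DMSO and 10.5 and 12 with Dox, with no overlap and a log2 fold change of -0.24 (SE 0.11, edgeR adjusted p = 0.199), or -0.15 without replicate 1 of the Dox group. HIST1H1E had 4.38 and 4.27 CPM with DMSO and 5.55 and 5.53 with Dox. Its replicates lay close together and its groups did not overlap, yet its log2 fold change of 0.36 (SE 0.16) had an edgeR adjusted p of 0.172. HIST1H1B, the third tested H1 gene, was counted 0 and 14 times with DMSO and 0 and 14 times with Dox.

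HIST1H3H and HIST1H4A were counted few times in this table. HIST1H3H had 12 and 26 counts with DMSO and 10 and 9 with Dox, and HIST1H4A had 12 and 18 against 6 and 7. The Dox libraries were the lower for both. Their log2 fold changes were -0.88 (SE 0.42, edgeR adjusted p = 0.208) and -1.08 (SE 0.47, edgeR adjusted p = 0.155). Without replicate 2 of the control, the library with 26 counts, HIST1H3H was at -0.30 (edgeR adjusted p = 0.883). Of the 5 tested H2A genes 4 were above 0, led by HIST1H2AG (0.57) and HIST1H2AM (0.34), and of the 5 tested H2B genes 0 were, HIST1H2BD at -0.20 and HIST1H2BN at -0.21 among them.

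**Figure D3:**
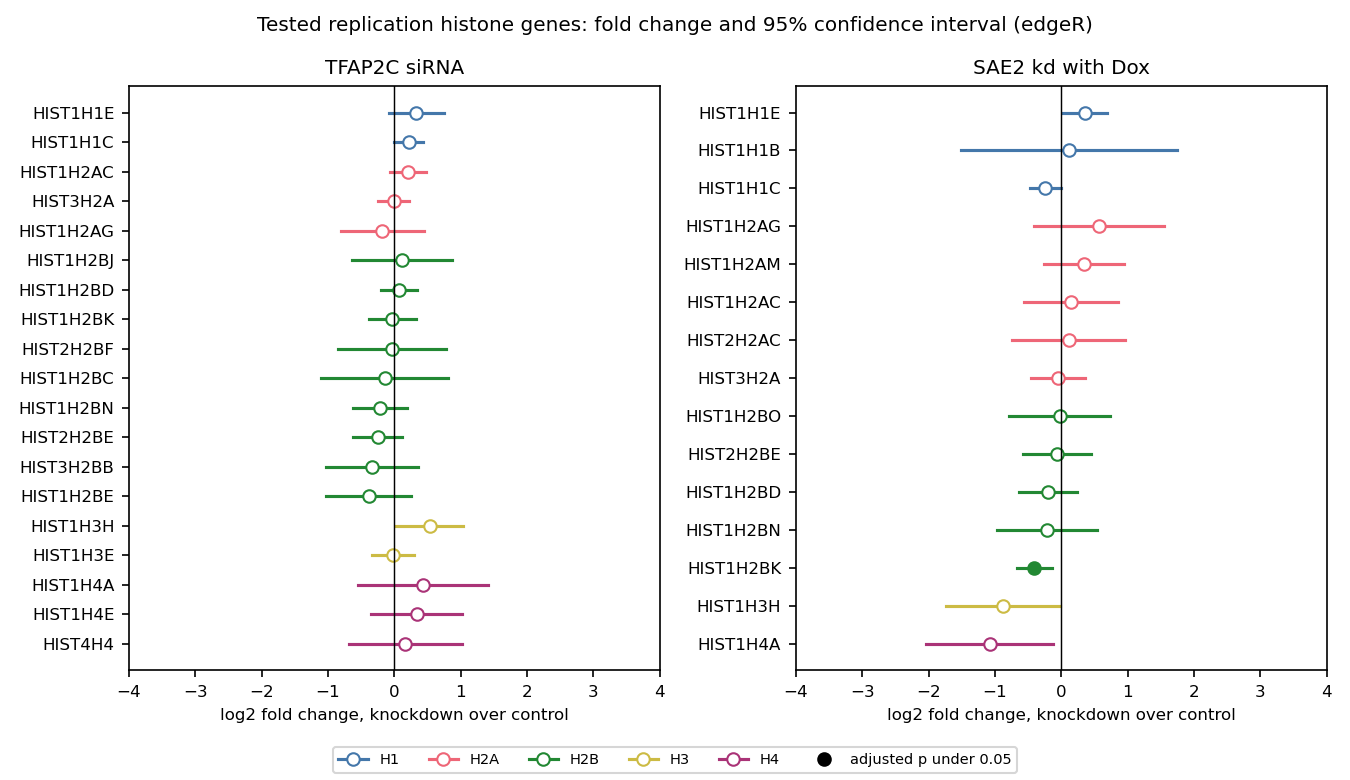
Log2 fold change of each tested member, knockdown over control, with its 95% confidence interval from edgeR, 19 members for TFAP2C KD on the left and 15 for the libraries labelled SAE2 kd on the right, coloured by histone class. Only HIST1H2BK on the right is filled, which marks an adjusted p under 0.05.

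The 2 knockdowns were compared by the difference of their log2 fold changes over the symbols that both tables share, TFAP2C KD less SAE2 kd. Of the members, 11 were tested in both tables. None of these 11 passed, where 2.57% of the 12158 genes tested in both tables did (2.37% of all 13179 genes in the fit), and 3 had an unadjusted p under 0.05 against 14.9% of those genes (14.1% of all in the fit). The other 13 members in the fit were tested in at most 1 table, and HIST1H1B and HIST1H2AM were at 0 in all 4 libraries of the TFAP2C table, so no difference is read from these 13. The 3 members were HIST1H1C with a difference of 0.44 (95% interval 0.14 to 0.75, edgeR adjusted p = 0.152), HIST1H3H with 1.40 (0.39 to 2.41, adjusted p = 0.173, and 0.82 with an adjusted p of 0.667 without replicate 2 of the DMSO control) and HIST1H4A with 1.5 (0.18 to 2.83, adjusted p = 0.273). For HIST1H2BK the difference was 0.36 (-0.10 to 0.82, adjusted p = 0.493), and 0.19 without replicate 1 of TFAP2C KD or 0.22 without replicate 2 of the Dox group. For HIST1H1C the difference was 0.51 without replicate 2 of TFAP2C KD, a fit with a lone KD library from which no call is read. Experiment and gene models cannot be told apart here.

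Summed by class, the H1 members had 20.2 and 19.9 CPM with control siRNA and 24.3 and 23.0 in TFAP2C KD, a log2 ratio of the means of 0.24. HIST1H1C was 85.2% of this sum and with HIST1H1E 99.9%, so the sum repeats their values. The H4 members had 2.50 and 2.35 against 3.09 and 3.04 CPM (0.34). In both classes the groups did not overlap, as was so for 44.7% of all genes tested in this comparison, and no test was run on sums. H2A (0.08), H2B (-0.07) and H3 (0.02) moved less. By cluster HIST2 had 4.72 and 4.65 CPM against 4.0 and 4.21 (-0.19), a lower sum without overlap, of which HIST2H2BE was the main part. HIST1 had 63.4 and 67.8 against 68.7 and 73.3 CPM (0.11), also without overlap, and HIST3 overlapped.

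In the SAE2 experiment the H2B members had 18.4 and 21.1 CPM with DMSO and 16.2 and 16.5 with Dox, a log2 ratio of -0.27, or -0.11 without HIST1H2BK and HIST1H2BD. The H2A members had 7.53 and 7.24 against 8.05 and 8.06 CPM (0.13). Neither H2B nor H2A overlapped between the groups, as was so for 51.3% of all genes tested. The H4 members had 1.60 and 2.88 CPM with DMSO and 0.999 and 2.58 with Dox, and the H3 members 1.87 and 2.78 against 1.55 and 2.74. In these 2 classes replicate 2 was above replicate 1 in both groups, and the gap between replicates exceeded that between groups. HIST1, HIST2 and HIST3 overlapped between the groups.

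**Figure D4:**
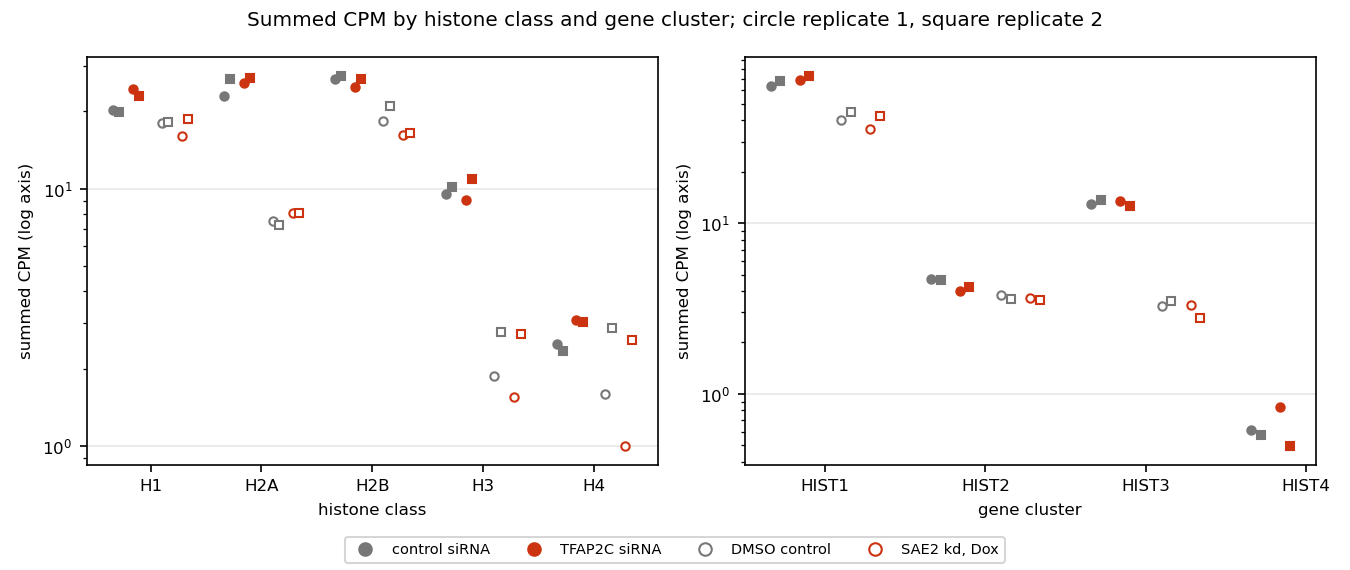
Summed CPM (log axis) of the members by histone class on the left and by cluster on the right, 1 point per library, filled for the TFAP2C table and open for the SAE2 table, grey for control and red for knockdown, circle for replicate 1 and square for replicate 2. The H1 and H4 sums of TFAP2C KD lie above their controls, and the open H3 and H4 points split by replicate. HIST4 is drawn for the TFAP2C table only, since it had under 10 counts in the other.

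The split by replicate in the SAE2 table was also seen in which members had a count. With DMSO 42 members had a count in replicate 1 and 54 in replicate 2, and with Dox 34 and 51 did; in the TFAP2C table the 4 libraries had 36 to 39. Of 57 members with a count in the SAE2 table, 6 were at 0 in both replicate 1 libraries and at 2 or more in both replicate 2 libraries (10.5%, against 46 of 17503 genes or 0.263%), a limit set after seeing the values. These shares were not matched for level. Of the 57 members 42 did not pass the filter on low counts, while 13381 of the 17503 genes passed it. The 6 members are HIST1H1B, HIST1H1D (0 and 6 with DMSO, 0 and 7 with Dox), HIST1H2BI, HIST1H3C, HIST1H3F and HIST1H3G. None of the 6 is among the 7 with known polyadenylated transcripts, but 61 of all 68 members are outside those 7, so little can be read from it. No member showed the reverse, where 9 genes did, and no member of the TFAP2C table showed either pattern.

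Some markers of other cell types also had more counts in both replicate 2 libraries of the SAE2 table. PTPRC, which encodes the leukocyte antigen CD45, was counted 1 and 11 times with DMSO and 0 and 15 times with Dox. The 4 markers PTPRC, CD3E, CD14 and LYZ summed to 11 and 30 counts with DMSO and 4 and 26 with Dox, and to 9 to 21 in the TFAP2C table, and CD3E was at 0 in 3 of the 4 SAE2 libraries and in all 4 TFAP2C libraries. Of 6 fibroblast markers, COL1A2, DCN and LUM were at 0 in all 4 SAE2 libraries and COL3A1 was at 0 to 2 counts. PDGFRB was counted 1 and 8 times with DMSO and 3 and 7 times with Dox. COL1A1 was counted 294 and 454 times against 269 and 300, a log2 fold change of -0.28 (edgeR adjusted p = 0.135). Both PDGFRB and COL1A1 thus had more counts in replicate 2 of each group, but these counts are not scaled by library size. Total counts were also higher in replicate 2, at 20607813 against 18632770 with DMSO and 18760501 against 18213739 with Dox. The share of all genes with more counts in both replicate 2 libraries is not given here. A small gap, such as 269 and 300 for COL1A1 with Dox, is therefore not read as a difference like that of PTPRC. Of 4 endothelial markers, PECAM1 and CDH5 were at 0 in these libraries, VWF had 8 and 12 counts against 6 and 3, and KDR had 9 and 3 against 7 and 5, so neither was higher in replicate 2 of both groups. The part of these markers in the members' counts was not tested.

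**Figure D5:**
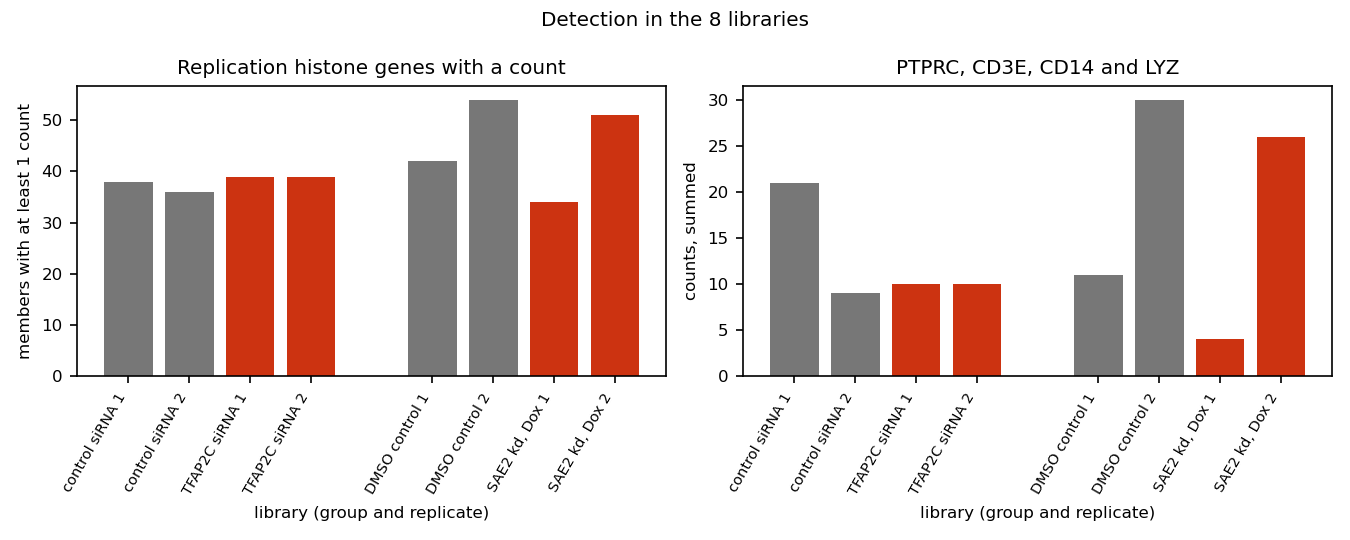
Number of members with at least 1 count (left) and summed counts of 4 leukocyte markers (right) in each of the 8 libraries, grey for control and red for knockdown. In the SAE2 experiment both bars of replicate 2 (54 and 51 members, 30 and 26 counts) stand above both of replicate 1 (42 and 34 members, 11 and 4 counts).

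Genes that act on the replication histone genes were measured with far more counts. SLBP, which binds the stem-loop, had a log2 fold change of -0.02 after TFAP2C KD and one of 0.07 with Dox, and NPAT, the coactivator of histone transcription at S-phase entry, had -0.15 and -0.04. None of the 4 values passed the test, with intervals of -0.18 to 0.13, -0.03 to 0.18, -0.47 to 0.18 and -0.18 to 0.10. NPAT was at -0.46 without replicate 2 of TFAP2C KD, a fit with a lone KD library, and its sign turned when another library was left out. Of 16 genes for 3′ end processing of histone mRNA, 0 passed in either comparison, and of 8 and 10 tested genes for its decay 0 passed. In TFAP2C KD 0 of 10 transcription factors and cyclin genes of the histone loci, 0 of 11 replacement histones and 0 of 25 histone chaperones passed.

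In the libraries labelled SAE2 kd a few of these genes passed, where 9.98% of all genes tested did and 4.47% passed as lower. CCNE1, the cyclin E that with CDK2 activates NPAT, was counted 1060 and 1276 times with DMSO and 1292 and 1285 times with Dox, and rose by 0.26 on the log2 scale (edgeR adjusted p = 0.0077). POU2F1, the octamer-binding factor named above, was counted 2081 and 2362 times against 1706 and 1822 and fell by 0.22 (edgeR adjusted p = 0.0092). The other 8 of the 10 transcription factors and cyclin genes did not pass. Of 25 chaperones 1 passed, ANP32E, which removes H2A.Z, at -0.18 (edgeR adjusted p = 0.0188). The call of CCNE1 was lost without replicate 1 of the control (edgeR adjusted p = 0.132). That of POU2F1 was lost without replicate 2 of the control (0.0890) or replicate 1 of the Dox group (edgeR adjusted p = 0.0587), and that of ANP32E without replicate 1 of either group (edgeR adjusted p = 0.190 and 0.210). In the fit of all 8 libraries the calls of POU2F1 and ANP32E were lost (edgeR adjusted p = 0.0527 and 0.296).

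Of 12 replacement histones, made throughout the cell cycle, 1 passed in the libraries labelled SAE2 kd (9.98% of all genes tested did). It was H1F0, a linker histone of slowly dividing and differentiated cells, counted 11338 and 11768 times with DMSO and 13671 and 13431 times with Dox, and it rose by 0.34 on the log2 scale (95% interval 0.25 to 0.43, edgeR adjusted p = 1.1e-06). H2AFX had a log2 fold change of -0.12 (edgeR adjusted p = 0.0980, but 0.0437 without replicate 1 of the Dox group and 0.0306 when scaled by library size alone), H2AFZ -0.01 and H3F3B -0.04. H3F3A, counted 15 to 24 times in these libraries, gave 0.04 with an interval of -0.69 to 0.76 and is uncertain because it has many processed copies in the genome.

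The members are S-phase genes, so other genes of the cell cycle are set beside them. In TFAP2C KD 0 of 24 S-phase genes and 0 of 20 G2/M genes passed, with medians of 0.03 and 0.08. In the libraries labelled SAE2 kd 9.98% of all genes tested passed, 4.47% being lower. There 2 of 24 S-phase genes passed, both lower, FEN1 (-0.18, edgeR adjusted p = 0.0194) and MCM4 (-0.14, edgeR adjusted p = 0.0324). Of 20 G2/M genes 5 passed, all lower, BUB1, AURKA, CCNB1, KIF11 and CENPF, with log2 fold changes of -0.22 to -0.14. The median of the 20 was -0.10 with 1 of 20 above 0. Without replicate 1 of the control the calls of FEN1, MCM4, AURKA, BUB1, CENPF and KIF11 were lost, and without replicate 2 of the control those of CCNB1, KIF11 and MCM4. Without replicate 1 of the Dox group those of CCNB1, CENPF, KIF11 and MCM4 were lost, and without replicate 2 those of CENPF, FEN1 and MCM4, with edgeR adjusted p between 0.0549 and 0.456 for the lost calls, and CENPF was at -0.09 without replicate 1 of the control. In the fit of all 8 libraries all 7 of these calls were lost (edgeR adjusted p from 0.0930 for AURKA to 0.658 for CENPF), and with DESeq2 those of CENPF and KIF11 were (adjusted p = 0.0876 and 0.0598). The part of cell-cycle stage in the members' values was not tested.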

How the data were processed

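The authors deposited 2 tables of raw read counts per gene. Their methods name hg19, TopHat2, RefSeq genes and HTSeq (0.9.1 in the submitters' processing notes), which the positions in the SAE2 table match. The TFAP2C table has GRCh38 positions, so its annotation is not given in the sources used here. Each table was therefore fitted alone and no level was tested across them. Groups and replicates were taken from the labels. No label says whether replicates came from separate cultures, so p-values measure the spread between these libraries, which may be technical. Total counts lay between 18213739 and 24465109.

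Counts were scaled by TMM, filtered with filterByExpr and tested with edgeR 4.0.16 (glmQLFit and glmQLFTest, R 4.3.3, two-sided), with Benjamini-Hochberg adjustment over all genes tested and a threshold of 0.05. The standard error was taken as the log2 fold change divided by the root of F. The difference between the knockdowns was an interaction term over all 8 libraries and 21257 shared symbols. DESeq2 1.42.0, other scalings and filters, a replicate block and leaving out each library were tried as alternatives. On simulated counts with 200 genes of mean count above 50 changed by 2 times, edgeR recovered 100% of them in the TFAP2C comparison (15000 genes), 100% in the SAE2 comparison (13401) and 94% in the difference (13192). Of the genes called there, 3.38%, 6.54% and 4.08%, in the same order, had not been changed. All genes were simulated with the same dispersion. It was below the one estimated for the TFAP2C comparison (a coefficient of variation of 6.28%) and above that for the SAE2 comparison (3.56%). Recovery may thus be overstated for TFAP2C KD. Members with fewer counts, and changes of less than 2 times, were not simulated. Stem-loops were searched in GRCh37, and promoters came from RefSeq (GRCh38.p14). Intervals cover the spread between libraries or, for 0 counts, counting error only.

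The members and gene lists were chosen with earlier results of these data known. Genes were named by rule: the targeted genes; members with an adjusted p under 0.05; the 2 most counted members of each class and the leading one of each cluster; the 3 largest rises and falls among tested members whose mean log2 CPM was 0 or more; list genes that passed, up to 6 a list; and SLBP, NPAT, H3F3A, H3F3B, H2AFZ, H2AFX and H1F0. HIST1H1B, HIST1H1D, HIST1H2AG and the other members of the replicate pattern were named after their values were seen. 1 further marker gene of another cell type is not reported here.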

Additional observations from a re-analysis of the deposited data

How the results depend on the processing

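Alternatives were other scalings (DESeq2 size factors, library size), filters (no filter, at least 10 counts in each library), DESeq2's Wald test, a fit of all 8 libraries, a replicate block, leaving out each library and, for sums, leaving out the 2 highest members. The number of members called in TFAP2C KD was 0 under all of these except without replicate 2 of TFAP2C KD (range 0 to 1 over libraries left out). In the libraries labelled SAE2 kd (SAE2 kd here) it went from 1 to 0 with DESeq2 and with all 8 libraries (0 to 1 over libraries left out), and for the difference it ranged from 0 to 1. The replicate numbers are only 2 per group with no label that ties them, so they were not taken as pairs. With a replicate block the members called stayed at 0 in TFAP2C KD, 1 in SAE2 kd and 0 for the difference, HIST1H2BK had an edgeR adjusted p of 0.0305, and all genes called moved from 111 to 172 and, for the difference, from 313 to 173.

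The median log2 fold change of the members was 0.074 in TFAP2C KD and 0.091 in SAE2 kd with no filter on low counts, and over libraries left out it ranged from -0.061 to 0.088 and from -0.27 to -0.0012. Without the 2 highest members the log2 ratio of the sums in SAE2 kd was 0.23 for H1, 0.20 for H2A, -0.11 for H2B, 0.39 for H3, 0.069 for HIST1 and -0.081 for HIST2, and in TFAP2C KD it was -0.22 for H2B, -1.03 for H3, 0.43 for H4 and -0.024 for HIST2. Within 1 replicate number at a time, a choice made after seeing the data, the SAE2 kd ratios ranged from -0.17 to 0.041 for H1, 0.096 to 0.15 for H2A, -0.35 to -0.19 for H2B, -0.27 to -0.021 for H3 and -0.68 to -0.16 for H4.

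The members' medians and some sums thus turned sign. Fold changes of single named genes turned sign only when a library was left out, and none of these genes had passed the test in the main fit. In TFAP2C KD the ranges were -0.14 to 0.097 for H2AFX, -0.0088 to 0.063 for H2AFZ, -0.061 to 0.20 for HIST1H2BD, -0.23 to 0.14 for HIST1H2BK, -0.21 to 0.15 for HIST1H3E, -0.060 to 0.030 for HIST3H2A, -0.27 to 0.48 for HIST4H4, -0.46 to 0.12 for NPAT, -0.059 to 0.0013 for SLBP. In SAE2 kd they were -0.053 to 0.029 for H2AFZ, -0.33 to 0.43 for H3F3A, -0.27 to 0.48 for HIST1H2AC, -0.77 to 0.21 for HIST1H2BN, -0.28 to 0.12 for HIST2H2BE, -0.14 to 0.039 for HIST3H2A, -0.11 to 0.034 for NPAT, -0.11 to 0.038 for UBA2.

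All genes called in TFAP2C KD were 271 with all 8 libraries, 398 with no filter and 49 to 2825 over libraries left out. In SAE2 kd, from 1336, they were 673 with DESeq2, 696 with all 8 libraries and 833 without replicate 2 of the control, and for the difference 113 to 1554. Tested members had at least 43 counts in total over the 4 libraries of the TFAP2C table and at least 28 in the SAE2 table, which limits what could be seen. The cause of these changes was not tested.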
